A study of Homo sapiens with 8 samples.

Results

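A set of 3595 genomic regions carried an ATF4 peak in Nalm6 cells after L-asparaginase treatment and no listed peak in untreated Nalm6 cells or in any SUPB15 library. The regions, called members from here on, were found by pooling the peaks of all 8 deposited lists and joining peaks that share at least 1 bp, which gave 132657 merged regions. A member has a peak in each of the Nalm6 asparaginase replicates and in none of the other 6 lists. The members were chosen by the measured presence or absence of a peak in the 8 lists, so that their presence, and their strength in the Nalm6 asparaginase lists, are given as a description with no test. The members are 2.71% of all merged regions, 9.92% of the 36255 regions present in both Nalm6 asparaginase replicates, and 51.2% of the 7017 regions gained in Nalm6 whatever SUPB15 shows. Of those 36255 regions, 19.4% were gained in Nalm6 and 43.1% lacked a peak in all 4 SUPB15 lists. These shares are fixed by the rule and nothing is read from them. Positions are in the hg19 build, and no gene name or DNA sequence is attached to a region because neither a genome nor an annotation of hg19 entered the work.

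The groups were Nalm6 with L-asparaginase at 1 IU/ml for 2 h, untreated Nalm6, SUPB15 with the same dose and time, and untreated SUPB15. There were 2 libraries per group, each an immunoprecipitation with 5 ug of a rabbit monoclonal antibody against ATF4. Nalm6 and SUPB15 are established lines of acute lymphoblastic leukaemia, each a single line, and nothing in the sources says that the SUPB15 replicates came from separate cultures. The design text gives more Nalm6 experiments per condition than the 2 here, and the others were not analysed here. Both lines grew in RPMI-1640 with serum and added glutamine, and SUPB15 is known for carrying the BCR-ABL1 fusion.

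ATF4 is a basic leucine zipper transcription factor whose protein is made when amino acids run short. Uncharged transfer RNA activates the kinase GCN2, which phosphorylates the translation factor eIF2 and lets ribosomes reach the ATF4 reading frame. ATF4 binds DNA as a dimer, often with a C/EBP protein, and is known for raising asparagine synthetase, amino acid transporters and other genes of amino acid supply. L-asparaginase, a mainstay of leukaemia therapy, breaks down asparagine outside the cell and so sets off this response.

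The lists differ in length and depth. They held 43376 and 48984 peaks for Nalm6 with asparaginase, 34825 and 36801 for untreated Nalm6, 88302 and 41213 for SUPB15 with asparaginase, and 9575 and 9586 for untreated SUPB15. The genome background of a list is the lowest background at any of its peaks, in fragments per position, and stands in for depth. It was 2.21 and 2.33 in Nalm6 with asparaginase and 2.97 and 2.79 in untreated Nalm6. It was 4.19 and 3.93 in SUPB15 with asparaginase and 4.08 and 3.90 in untreated SUPB15. The Nalm6 asparaginase libraries, which define presence of a member, were therefore the shallowest of the 8. SUPB15 asparaginase replicate 1 stands apart by its length, and its effect on the members is given below.

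Most members were modest peaks. Fold enrichment over local background, the authors' value for each peak, had a median of 4.52 in asparaginase replicate 1, with 5% of the members below 3.04 and 5% above 7.58. In asparaginase replicate 2 the median was 4.65, with the same limits at 2.99 and 8.23. The lower of both values, used below as the strength of a member, ran from 1.77 to 13.8 with a median of 4.20. A typical member rested on few fragments, 18 piled up at the summit in replicate 1 (95% exact Poisson interval 10.7 to 28.4) and 20 in replicate 2 (12.2 to 30.9). These intervals and the Wilson intervals below cover counting error only. The −log10 q values reached 10 in both replicates at 578 members, 16.1% (95% Wilson interval 14.9 to 17.3).

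The replicates ranked the members alike. Across the 3595 members, Pearson's r of the log2 fold enrichments was 0.75 and Spearman's rho 0.69. The members are not independent of each other, the choice required a peak in each replicate, and no p is given for that reason. The summit level, meaning fragments at the summit divided by genome background, was higher in replicate 2 than in replicate 1 by 0.07 on the log2 scale in the median. The log2 ratio had its 5th percentile at −0.47 and its 95th at 0.61. Summits of both replicates lay 48 bp apart in the median, and within 100 bp of each other at 2781 members or 77.4%.

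**Figure D1:**
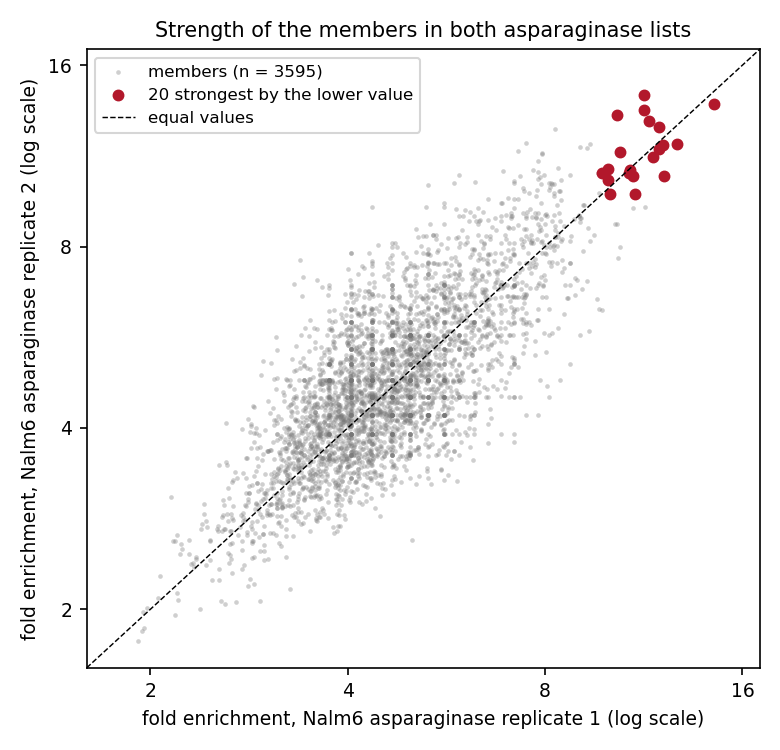
Fold enrichment of each member in Nalm6 asparaginase replicate 1 (horizontal) and replicate 2 (vertical), both on log scales, with the 20 members of highest lower value in red and the line of equal values dashed. The cloud follows the line, with most members between 3 and 8, and the 20 strongest all lie at 9.76 or above in each replicate.

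The strongest member lay at chr15:49550384-49551033. Its fold enrichment was 14.5 in asparaginase replicate 1 and 13.8 in replicate 2, and its summits in both lists were 3 bp apart. At the summit 60 fragments (95% exact Poisson interval 45.8 to 77.2) and 56 fragments (42.3 to 72.7) were piled up, which is 27.2 and 24.0 times genome background. The nearest peak of an untreated Nalm6 list was 41591 bp away and the nearest SUPB15 peak 26171 bp away.

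The next was at chr17:76028870-76029548, with fold enrichments of 12.0 and 12.6 and with 59 and 67 fragments at the summit. A SUPB15 peak stood 947 bp from its edge. Chromosome 16 gave the next of the ranking, at chr16:33075919-33076597 (12.7 and 11.8) and at chr16:51263525-51264482 (12.1 and 11.8). The first of these had no SUPB15 peak within 160859 bp, whereas the second had one at 1590 bp.

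The X chromosome held 4 of the 20 strongest members, more than any other chromosome. It held 106 of all 3595 members and 758 of the 36255 regions of both Nalm6 asparaginase lists. SUPB15 peaks were sparse there, at 0.452 asparaginase peaks per Nalm6 asparaginase peak, and nothing is read from the count of 4. These 4 members lay at chrX:23817626-23818148, chrX:78047811-78048487, chrX:65099761-65100570 and chrX:132043596-132044084. Their fold enrichments were 11.9, 11.3, 11.3 and 10.3 in asparaginase replicate 1 and 11.6, 14.3, 13.5 and 13.2 in replicate 2. In the region at chrX:78047811-78048487, 48 and 70 fragments were piled up, and no SUPB15 peak stood within 345878 bp.

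Chromosome 15 held 2 further members of the 20, at chr15:45643207-45643864 (10.9 and 10.5) and at chr15:48029560-48030197 (11.0 and 9.77). All 3 members of chromosome 15 in this group lie within a few megabases of each other. Chromosome 11 held 2 members, at chr11:94775406-94775902 (10.8 and 10.7) and at chr11:36038123-36038790 (10.0 and 9.76). A SUPB15 peak stood 396 bp from the first of them. Of all 3595 members, 126 were on chromosome 15 and 143 on chromosome 11.

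The other 8 were spread over as many chromosomes. At chr22:17050097-17050462 the fold enrichments were 11.5 and 12.9, with a local background equal to genome background and no untreated Nalm6 peak within 220396 bp. At chr4:179308747-179309257 they were 10.7 and 10.6, in a stretch with no SUPB15 peak within 945125 bp. At chr8:106966268-106966885 they were 12.1 and 10.5, beside a SUPB15 peak at 338 bp. The remaining 5 lay at chr2:63961534-63962078, chr14:70334943-70335593, chr10:14082151-14082723, chr5:52723704-52724286 and chr1:118797409-118797926, with lower fold enrichments from 9.78 to 11.2. In all 20 the summits of both replicates lay at most 41 bp apart.

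A region without a listed peak has no measured value. Each member was therefore set against an estimate of the lowest level at which the other lists could have named it. For each of those lists this limit was the smallest summit pileup that reached the list's weakest p at the member's local background, carried over in multiples of genome background. All 3595 members were above the limit of all 6 lists in both asparaginase replicates. The choice nearly fixed that count. A member had to be listed in the 2 shallowest libraries, and the lowest member level was 4.29 times genome background, while the other lists needed 2.86 to 3.59 times at genome background. The ratios therefore describe the margin and are no support for a difference. Each ratio given is the lower of those in both asparaginase replicates. The median member stood at 1.71 and 1.64 times the limits of the untreated Nalm6 lists, 2.06 and 1.93 times those of the SUPB15 asparaginase lists, and 1.73 and 1.77 times those of the untreated SUPB15 lists. A level at least 2 times the limit of both untreated Nalm6 lists was reached by 842 members, or 23.4%, and at least 3 times by 128.

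For the 20 strongest members the ratio to the higher limit of both untreated Nalm6 lists was 3.87 to 5.49, and that to the highest limit of the 4 SUPB15 lists 3.93 to 5.77. The member at chr15:49550384-49551033 had the highest value of each. These ratios take depth from the genome background alone and assume a like local background in the list without a peak, which was not measured. They also rest on the summit alone, although no listed peak was narrower than 200 bp. At genome background the limit of untreated Nalm6 replicate 2 was 3.59 times, but its lowest listed peak stood at 3.94 times. In the other lists without a member peak both values were the same. With the 5th percentile of p among peaks at genome background as a stricter limit, 3540 members stayed above both untreated Nalm6 limits. The margins shrank, with a median ratio to the higher of both limits of 1.37 instead of 1.64. At least 2 times both limits was then reached by 399 members (11.1%) instead of 842, and at least 3 times by 34 instead of 128.

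**Figure D2:**
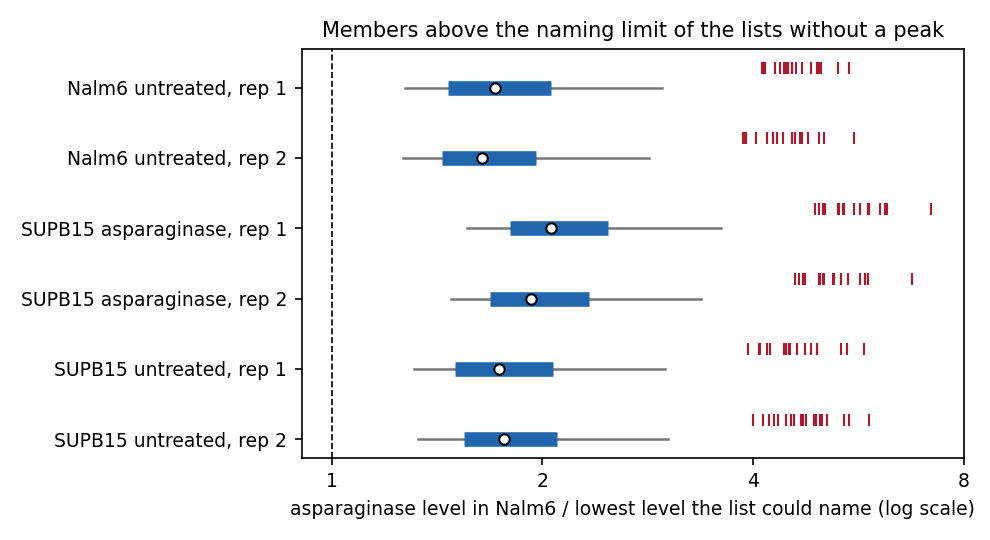
Ratio of the asparaginase level of a member in Nalm6 to the estimated lowest level each of the other 6 lists could have named. The lower ratio of both replicates is shown on a log scale, over 3595 members. Thick bars span the middle 50% of the members, thin lines 90%, circles mark the medians and red ticks the 20 strongest members. All of the plotted spans lie above 1, and the ratios are highest against SUPB15 asparaginase replicate 1, with a median of 2.06.

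The 5 members of weakest q were at chr1:175158104-175158341, chr2:136930771-136931148, chr11:83312342-83312708, chr2:111569897-111570471 and chr11:96159853-96160393. Their lower fold enrichments were 2.20 to 3.09 and their lower −log10 q values 1.74 to 1.95. Just outside were 2561 regions barred by a peak in a single untreated Nalm6 list and 1094 barred by a single SUPB15 list. The weakest barring peak in an untreated Nalm6 list, at chr20:35536715-35537440, had 10 fragments at its summit and a −log10 q of 1.40, while the fold enrichments with asparaginase there were 6.17 and 4.07. The weakest barring SUPB15 peak was at chr2:100754396-100754896 with a −log10 q of 1.73, where the asparaginase fold enrichments in Nalm6 were 3.42 and 2.79.

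The other regions just outside because of untreated Nalm6 were at chr14:90452720-90453104, chr11:35340928-35341247, chr5:157030334-157030752 and chr12:128256833-128257314, with barring −log10 q values of 1.71 to 1.87. Those just outside because of SUPB15 were at chr13:25085310-25085857, chr7:42793565-42794056, chr6:28915326-28915628 and chr21:47980495-47981013, with values of 1.80 to 2.02. The lower of both asparaginase fold enrichments at these 8 regions was 3.02 to 5.92, within the range of the members.

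SUPB15 asparaginase replicate 1 barred the most regions. Of the 7017 regions gained in Nalm6, 3211 had a peak in that list, 2495 in SUPB15 asparaginase replicate 2, and 585 and 337 in the untreated SUPB15 lists. A peak in asparaginase replicate 1 alone barred 897 regions, and its median −log10 q there was 5.62. Replicate 2 alone barred 177, and the untreated SUPB15 lists alone barred 19 and 1. Without SUPB15 asparaginase replicate 1 the number of members would be 4514. Without Nalm6 asparaginase replicate 1 or 2 the rule is laxer and gives 9087 and 6381 regions. With the 9575 strongest peaks of every list the rule gives 1166 regions, and 57 of them are members.

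Among the 15625 regions of both Nalm6 asparaginase lists with no SUPB15 peak, the members were 23.0%. A further 9469 had a peak in both untreated Nalm6 lists, 1563 in replicate 2 alone and 998 in replicate 1 alone. The median lower fold enrichment was 4.20 at the members, 4.65 at the 9469 regions with peaks in all 4 Nalm6 lists, and 4.02 and 3.98 at those with a peak in untreated replicate 2 alone or replicate 1 alone.

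The rule was also read 1 replicate at a time, with the chosen regions looked up in the lists of the other replicate. Those lists also define the members, and their peaks had a part in the merging of the regions. The shares are therefore a description and no independent support for the pattern. With the replicate 1 lists alone, 8447 regions had a Nalm6 asparaginase peak and no peak in untreated Nalm6, SUPB15 asparaginase or untreated SUPB15. In the replicate 2 lists, 63.7% of them (95% Wilson interval 62.7 to 64.7) had a peak in Nalm6 with asparaginase, against 24.9% (24.0 to 25.9) in untreated Nalm6. In SUPB15 the shares were 3.08% with asparaginase and 0.118% without. Among all 40864 regions of that Nalm6 asparaginase list, 88.7% had a peak in Nalm6 asparaginase replicate 2 and 70.4% in untreated Nalm6 replicate 2, so the chosen regions recurred less than the average region in both. All 4 replicate 2 lists met the rule at 42.6% of these regions, which are the 3595 members.

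The choice made in the replicate 2 lists gave 12627 regions, and lower shares in replicate 1. A peak was present at 45.2% (44.4 to 46.1) in Nalm6 with asparaginase and at 15.4% (14.8 to 16.1) in untreated Nalm6. SUPB15 asparaginase replicate 1, the longest list, held a peak at 16.2%, and untreated SUPB15 replicate 1 at 0.325%. Among all 46644 regions of the choosing list, the shares in replicate 1 were 77.7% in Nalm6 with asparaginase and 61.6% in untreated Nalm6. SUPB15 asparaginase held a peak at 47.1% of them in replicate 1, and at 35.9% of all regions of the replicate 1 choosing list in replicate 2. For untreated SUPB15 these base shares were 15.3% in replicate 1 and 14.5% in replicate 2.

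The separation of the Nalm6 treatments was not particular to regions without a SUPB15 peak. Regions gained in Nalm6 that had a SUPB15 asparaginase peak in the same replicate were found in the other replicate at 84.7% with asparaginase and 19.8% untreated (3993 regions, replicate 1 choosing), and at 69.9% and 8.54% (3477 regions, replicate 2 choosing). The mirror choice gave like shares for both treatments. Of 4439 regions with a replicate 1 peak in untreated Nalm6 and in none of the other 3 replicate 1 lists, 38.5% (37.1 to 39.9) had a peak in Nalm6 asparaginase replicate 2 and 36.8% (35.4 to 38.3) in untreated replicate 2. For 4235 regions chosen in replicate 2, the shares in replicate 1 were 23.0% with asparaginase and 25.8% without. The Nalm6 asparaginase lists are longer than the untreated ones, and the part of list length in these shares was not tested. Regions are not replicates, so these shares carry no p, and no test over samples was run on them.

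Recurrence was highest among strong regions in the asparaginase list, and varied little with strength in the untreated list. In the weakest of 5 classes of the 8447 regions, with fold enrichments up to 3.55, 49.9% had a peak in Nalm6 asparaginase replicate 2 and 25.5% in untreated replicate 2. In the strongest class, from 5.25, the shares were 90.6% (89.1 to 91.9) and 23.7% (21.7 to 25.7). With replicate 2 choosing, the Nalm6 asparaginase share was 32.8% in the weakest class, 27.9% in the next and 79.5% in the strongest, and the untreated Nalm6 share was 16.5% in the weakest and 15.2% in the strongest. The SUPB15 asparaginase share was also higher in the strongest class, at 6.34% compared with 1.18% in the weakest for replicate 2, and 23.1% compared with 11.9% for replicate 1.

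**Figure D3:**
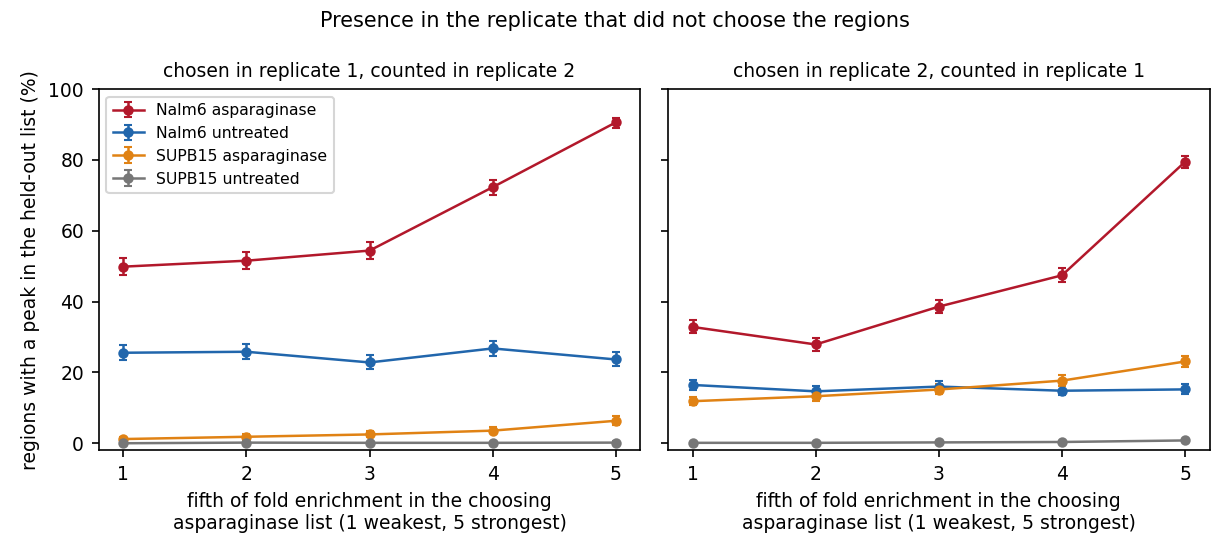
Share of regions with a peak in each list of the replicate that did not choose them (vertical, percent, with 95% Wilson intervals). The regions met the rule in replicate 1 (left) or replicate 2 (right). They are divided by class of fold enrichment (5 classes) in the Nalm6 asparaginase list that chose them. The Nalm6 asparaginase share is 90.6% and 79.5% in the strongest classes, while the untreated Nalm6 share stays between 14.7% and 26.8% throughout.

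Members were weaker than regions gained in Nalm6 that did have a SUPB15 peak. The median fold enrichment was 4.52 at members against 5.25 at the 3422 other gained regions in asparaginase replicate 1, and 4.65 against 5.51 in replicate 2. The ranges between the 25th and 75th percentiles overlapped, from 3.87 to 5.42 at members and from 4.31 to 6.55 at the others in replicate 1. Absence from SUPB15 was most common among weak regions. When all 7017 gained regions were divided into 5 classes by lower fold enrichment, the share that were members was 67.5% (95% Wilson interval 65.0 to 69.9) in the weakest class, up to 3.66, then 59.7%, 52.8% and 43.5%, and 32.2% (29.8 to 34.7) in the strongest, from 5.90. The part of depth and of the naming threshold of the SUPB15 lists in this gradient was not tested.

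Shape differed little between members and other gained regions of like strength. In the strongest class the median peak width in asparaginase replicate 1 was 419 bp at members and 411 bp at gained regions with a SUPB15 peak, and in the weakest class it was 255 and 274 bp. Summits of both replicates lay farther apart at weak members, with a median of 65 bp at members against 46 bp at the other gained regions in the weakest class, and 25 against 29 bp in the strongest. Over all 3595 members the median width was 299 bp in replicate 1 and 325 bp in replicate 2.

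Local background was lower at members than at regions with a peak in all 4 Nalm6 lists. The peak caller appears to have counted it in 10 kb of the same library, which would include the fragments of the peak itself. The part of a peak's own fragments in the difference was not tested. At the median member local background was 1.30 and 1.31 times genome background in asparaginase replicates 1 and 2. At the 25184 regions with a peak in all 4 Nalm6 lists it was 2.26 and 2.42 times. It equalled genome background at 20.3% of members (19.0 to 21.6) and at 2.76% of the regions found in all 4 lists in replicate 1, and at 18.3% and 2.18% in replicate 2. The classes of like strength cannot set this difference apart from the choice, since fold enrichment is itself a ratio to local background and absence from the untreated lists favours low pileups. The median pileup in replicate 1 was 18 at members and 35 at regions with a peak in all 4 lists. In the middle class, with lower fold enrichments of 4.20 to 4.80, the medians were 1.15 at members and 1.89 at regions with a peak in all 4 Nalm6 lists in replicate 1, and 1.17 and 2.00 in replicate 2. Regions with a peak in all 4 lists were also wider in that class, at 517 bp against 297 bp for members in replicate 1, and the part of width in the background was not tested. Gained regions with a SUPB15 peak had the same medians as members in the middle class, so the low value was not particular to the members.

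**Figure D4:**
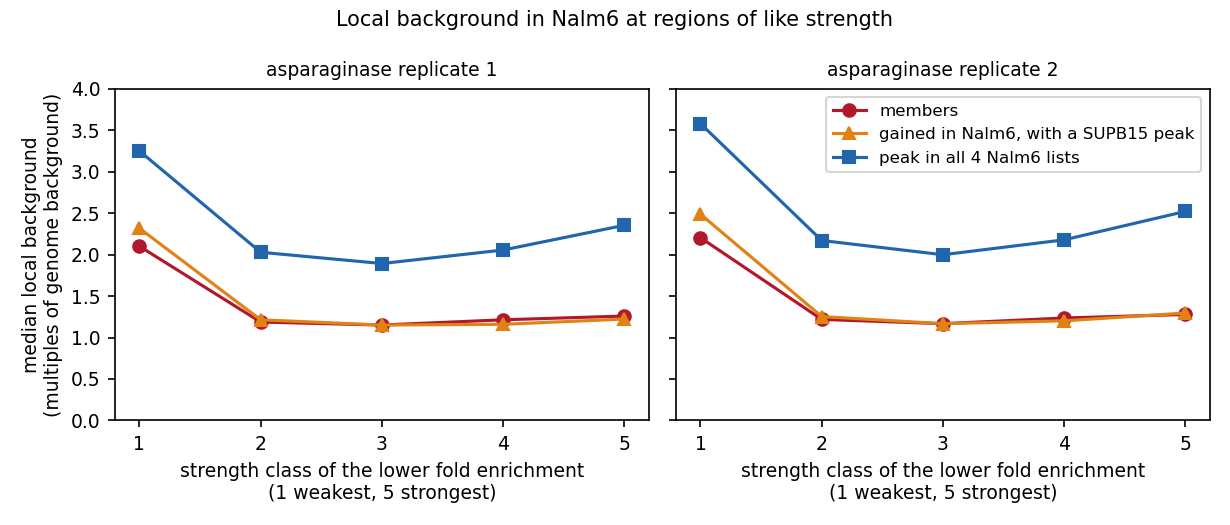
Median local background in multiples of genome background (vertical) by class of lower fold enrichment, in Nalm6 asparaginase replicate 1 (left) and replicate 2 (right), for members, for other regions gained in Nalm6 and for regions with a peak in all 4 Nalm6 lists. Members and other gained regions run together between 1.15 and 1.30 from the second class on, and regions with a peak in all 4 lists lie higher in each class.

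A peak of another list stood within 200 bp of 219 members (6.09%) and within 1 kb of 690 members (19.2%). The nearest peak of an untreated Nalm6 list lay 13567 bp away in the median and within 1 kb for 386 members, 10.7%. The nearest SUPB15 peak lay 7860 bp away in the median, within 200 bp for 119 members (3.31%) and within 1 kb for 426 (11.8%). For 2905 members no peak of the other 6 lists was found within 1 kb. The member most distant from all of them was at chrX:86891502-86892195, with 1151586 bp to the nearest SUPB15 peak and 1397761 bp to the nearest untreated Nalm6 peak, and fold enrichments of 5.30 and 4.80. That region was picked out after its values were seen.

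Distances to sites already occupied were much like those of the other gained regions. The nearest region with a peak in all 4 Nalm6 lists was 21951 bp from the median member and 22686 bp from the median gained region with a SUPB15 peak. It was within 10 kb for 31.6% (30.1 to 33.2) of members and 30.5% (29.0 to 32.1) of the others. Regions with a peak in all 4 lists had another one within 10 kb in 37.4% (36.8 to 38.0) of cases.

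Members were mostly scattered. The nearest other member was 181957 bp away in the median, and 1263 members, 35.1%, had another within 100 kb. A stretch of 100 kb held at most 5 members, at chr2:129100125-129195155. Those 5 had lower fold enrichments of 2.88 to 5.17, and no SUPB15 peak of any library stood between them, while the untreated Nalm6 lists had 10 peaks there. The next closest runs held 4 members each. At chr20:1774498-1825838 the lower fold enrichments were 3.49 to 5.46. At chr4:146404441-146461916 they were 1.95 to 6.19, and the summits reached 37 to 59 fragments, with the weakest enrichment at 37 fragments in both replicates.

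By chromosome, the members were unevenly placed. Among regions of both Nalm6 asparaginase lists the share of members was 4.15% (95% Wilson interval 3.30 to 5.22) on chromosome 19, 5.15% on chromosome 22 and 5.55% on chromosome 17. It was 15.7% (13.9 to 17.5) on chromosome 4 and 14.2% (12.3 to 16.2) on chromosome 14, next to 9.92% over the genome. Chromosome 19 is known as gene-dense and chromosome 4 as gene-poor. Both steps of the rule contributed. On chromosome 19 10.2% of the regions in both asparaginase lists were gained and 40.8% of the gained ones had no SUPB15 peak, whereas on chromosome 4 these shares were 25.2% and 62.2%.

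Absence from SUPB15 among gained regions was 65.9% (59.9 to 71.4) on chromosome 14, 63.1% (55.6 to 70.0) on chromosome X and 62.2% (57.3 to 66.8) on chromosome 4, against 51.2% over all chromosomes. On chromosome Y, with only 17 gained regions, it was 64.7% (41.3 to 82.7). The number of SUPB15 asparaginase peaks per Nalm6 asparaginase peak was 0.905 on chromosome 14, 0.452 on chromosome X and 1.46 on chromosome 4. Chromosome 8 had 4.63 SUPB15 peaks for each Nalm6 peak, and 46.3% (40.8 to 51.9) of its gained regions were members. Chromosomes 4 and 14 each held a stretch poor in SUPB15 peaks, taken as the longest run of 5 Mb windows with under 0.5 SUPB15 asparaginase peaks per Nalm6 asparaginase peak. Both were chosen after the values were seen. On chromosome 4 from 165 to 190 Mb SUPB15 had 106 and Nalm6 434 asparaginase peaks, and 33 of 41 gained regions were members, 80.5% (66.0 to 89.8). The member at chr4:179308747-179309257 lies in it. On the rest of chromosome 4 SUPB15 had 5786 and Nalm6 3605 such peaks, and the share was 60.1% (54.9 to 65.0). On chromosome 14 from 55 to 80 Mb the counts were 337 and 1021, and 69 of 98 gained regions were members, 70.4% (60.7 to 78.5). On the rest of chromosome 14 it was 63.1% (55.4 to 70.2). Among regions with a peak in all 4 Nalm6 lists, 64.3% lacked a SUPB15 peak in the stretch of chromosome 4 against 36.7% on its rest, and 52.0% against 37.7% on chromosome 14. The part of SUPB15 peak density in these shares was not tested.

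**Figure D5:**
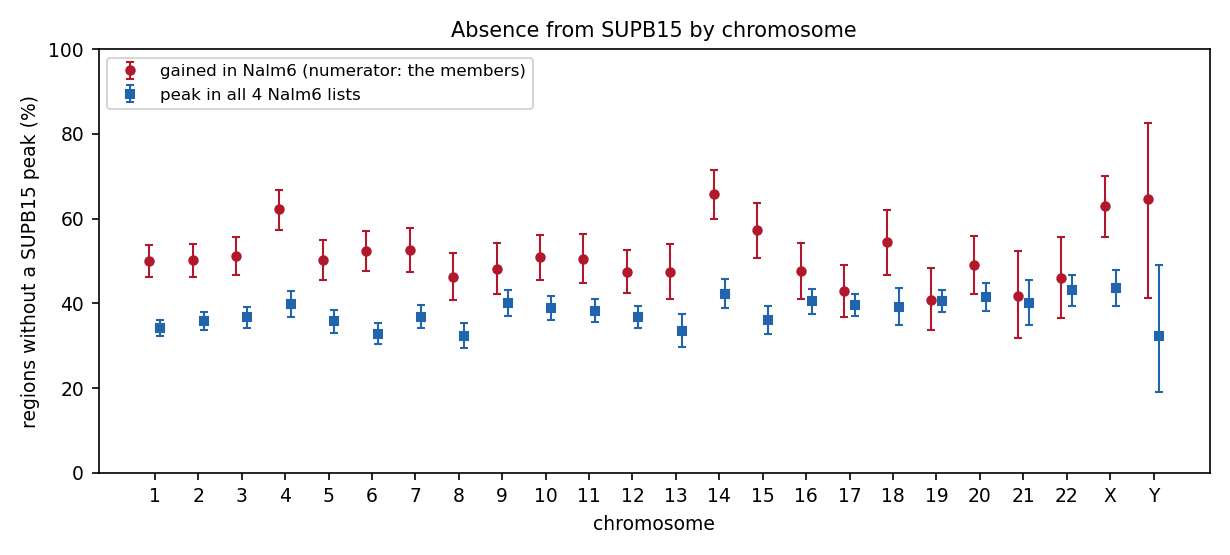
Share of regions without a peak in any SUPB15 list (vertical, percent, with 95% Wilson intervals) by chromosome, for regions gained in Nalm6, where the share counts the members, and for regions with a peak in all 4 Nalm6 lists. Chromosomes 4, 14 and X stand highest among those with at least 100 gained regions, and chromosome 19 is lowest at 40.8%, level with its regions present in all 4 lists.

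On a finer scale, 573 of the 599 windows of 5 Mb that hold a region of both asparaginase lists held a member. The most were 23, on chromosome 1 from 200 to 205 Mb, where 30 regions were gained in Nalm6 and SUPB15 had 475 asparaginase peaks. On chromosome 14 from 70 to 75 Mb 22 of 26 gained regions were members, beside 58 SUPB15 and 216 Nalm6 asparaginase peaks. On chromosome 2 from 145 to 150 Mb it was 16 of 19, beside 179 and 111 peaks. These windows were picked for their number of members.

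The windows were then ordered by SUPB15 asparaginase peaks per Nalm6 asparaginase peak. In the class of windows with the lowest ratio (of 5), up to 0.900, 53.9% (51.4 to 56.4) of the gained regions were members, and in the class with the highest, from 2.10, 48.2% (44.8 to 51.6). The regions with a peak in all 4 Nalm6 lists showed a wider gap, with 45.6% (44.5 to 46.7) and 25.6% (23.7 to 27.6) absent from SUPB15. Over 359 windows with at least 10 gained regions, Spearman's rho between the ratio and the share of members was −0.11, a description across windows that share the same libraries.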

How the data were processed

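ATF4 ChIP-seq peak lists of 8 libraries were analysed, 1 list per library. The submitters' processing notes name BWA, the hg19 build, MACS2 and DiffBind, without their versions or options. The deposited lists give for each peak a fold enrichment at the summit (a ratio to local background), −log10 p and −log10 q and the summit position, all as the authors' peak caller wrote them. No peak was narrower than 200 bp and no line was identical between any 2 lists.

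Samples were grouped by title. Peaks of all lists sharing 1 bp were merged with Python 3.11.15, and the strongest peak of a list stands for a region (31 members had more than 1). Summit pileup and local background were solved from fold and −log10 p, taking fold as (pileup + 1) / (background + 1) and p as a Poisson tail; 100% of the peaks were solved within 0.001 in −log10 p. The lowest background of a list is its genome background. All higher ones were multiples of 0.02, which is what 200 bp fragments counted in 10 kb of the same library give, so that no control library appears to have been used. This is an inference from the values. Copy number and open chromatin can then raise peaks, and the lists give no read totals.

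The members and the choice of comparisons were made with earlier results of these data known. Named regions are the 20 strongest members by the lower fold enrichment, 5 just inside and 5 and 5 just outside the rule, and the 3 closest runs within 100 kb. The merging, the rule and the inversion were tested on simulated data. The simulated local backgrounds lay above the genome background of every Nalm6 list, and the simulated sites lay far apart. Peaks at genome background in Nalm6 and closely spaced peaks were therefore not covered. Shares carry 95% Wilson intervals (scipy 1.17.1). Alternatives were other q thresholds, equal list lengths, other overlap rules, a stricter limit, left-out libraries and left-out chromosomes. Motifs, promoters and gene lists had been planned and were not computed, since no genome of this build was used here.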

Additional observations from a re-analysis of the deposited data

How the results depend on the processing

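The number of members, 3595, was 2905 to 5208 under 12 of 16 alternatives. It was 578 when presence needed a −log10 q of 10 and absence was read from the full lists, and 1166 with 9575 strongest peaks in every list, of which 57 are members; by construction shorter lists admit fewer regions and also bar fewer. Left-out libraries gave 3596 to 9087, the laxer rule without a Nalm6 asparaginase list being the cause by construction. With −log10 q of at least 5 or 10 in every list there were 3693 and 3091 regions, and they shared 2045 and 578 with the members, so a like count is not a like set. The share of gained regions absent from SUPB15, 51.2%, was 56.8% and 62.3% at these thresholds, 34.3% with −log10 q of 10 for presence only, 46.1% with equal lists, 52.7% with summits within 200 bp, 60% with reciprocal overlap of 50%, 45.7% with absence within 1 kb, and 51.2% to 64.1% without single libraries. The median lower fold enrichment, 4.20, was 6.21, 6.49 and 8.46 with −log10 q of 10 in every list, with 10 for presence only and with equal lists, and 4.15 to 4.25 without single libraries. With replicate 2 choosing, the shares in replicate 1 were 45.2% and 15.4% in Nalm6 with and without asparaginase. In SUPB15 they were 16.2% and 0.325%, and the cause was not tested. Of the 20 strongest members 17 to 20 were chosen under each alternative. Their strength largely fixed that count, since higher q thresholds keep strong peaks and a left-out list only relaxes the rule. It was 17 with absence within 1 kb, which drops members near another peak by construction, and 18 without chromosomes 1 and 8. No paired analysis was possible because the members have no value in 6 of the 8 lists, and the results are counts and shares that come from no test. The typical member had 18 and 20 fragments at its summit in Nalm6 asparaginase replicates 1 and 2, and the part of depth in these counts was not tested.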
